A study of Mus musculus with 50 samples.

Results

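The arrays compared here measured whole colon tissue from mice labelled FADD IEC-KO, in which the gene Fadd was knocked out in intestinal epithelial cells, and from mice labelled Fadd fl/fl, which carry the floxed gene. They were chosen by title: FADD IEC-KO with no second gene, numbers 21 to 25, and Fadd fl/fl, numbers 26 to 30. These are 10 of the 50 arrays of the series, 5 in each group, and all 19494 genes measured on each array were used. The other 8 groups of the series hold caspase-8 knockouts, alone or combined with loss of Mlkl, and FADD knockouts combined with loss of Zbp1, Mlkl or RIPK3. They also hold a Casp8 fl/fl control and a further 5 FADD IEC-KO arrays with titles between 86 and 124. Per the labels, the mice were 11 weeks old and were kept under specific pathogen-free conditions on chow. A further label field gives a range of weeks whose upper end differs on every array, and the series description gives 10 to 12 weeks. The labels name no Cre driver for the knockout. They also do not say that each array came from its own mouse, so p-values below describe arrays, with 1 spread estimated over all 50 arrays. Every value is a log2 signal, so that a difference of 1 is a 2-fold difference.

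FADD is the adaptor that joins death receptors to caspase-8. Together they start apoptosis, and they also hold back necroptosis, a lytic death in which the kinase RIPK3 activates the membrane-rupturing protein MLKL and which the nucleic acid sensor ZBP1 can trigger. Mice that lack FADD in the intestinal epithelium are known to lose epithelial cells and to develop colitis. Signals of dying cells, of bacteria at a leaky barrier and of interferons can act on some of the gene groups described below. Their part in the changes reported here was not tested.

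The targeted gene was read first. Fadd gave 6.45, 6.50, 6.45, 6.32 and 6.22 on FADD IEC-KO arrays 21 to 25, and 7.61, 7.32, 7.47, 7.37 and 7.12 on Fadd fl/fl arrays 26 to 30. All 5 knockout arrays lay below all 5 floxed arrays, and the knockout values were close together. The fall was 1.98-fold (log2 change -0.99 ± 0.11 SE, limma adjusted p = 3.26e-07). In whole tissue such a value sums over all cells, so fewer cells of a type and less RNA per cell cannot be told apart, here or for any gene below. Ppfia1, the protein-coding neighbour of Fadd on one side, differed by 0.195 (limma adjusted p = 0.167), and Ano1, the neighbour on the other side, is described with the wall of the gut.

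The tissue carried its colonic epithelial markers in both groups. Epcam, a surface protein of epithelial cells, ranged from 11.74 to 12.00 on the knockout arrays and from 11.80 to 11.93 on the floxed arrays, Krt8 from 12.22 to 12.38 and from 12.30 to 12.35, and Muc2, the main colonic mucin, from 12.76 to 13.02 and from 12.61 to 12.87. None of the 3 passed the test (limma adjusted p = 0.978, 0.837 and 0.332). Of 17 measured colon identity markers, 2 rose and 3 fell (median 0.05), against 8.59% and 10.1% of all genes. Without arrays 22 and 23, 1 rose and 2 fell. The list mean was 10.21, 9.77, 10.09, 10.14 and 10.20 on arrays 21 to 25, and 10.11 to 10.28 on the floxed arrays. Knockout arrays 22 and 23 stood apart. Principal components were taken over the 3000 genes that varied most among the 10 arrays. The first, with 67.6% of the variance of those genes, placed arrays 22 and 23 at 50.8 and 33.7. Arrays 25, 24 and 21 lay at 16.5, 6.0 and -8.1, and the floxed arrays between -23.0 and -17.1. Y-linked genes were high on knockout arrays 24 and 25 and on floxed arrays 27, 28 and 29, so both groups held both sexes. Results that rest on arrays 22 and 23 are therefore given with and without them.

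Between the groups, 1674 of 19494 genes rose and 1976 fell, that is 8.59% and 10.1% of all genes tested (limma over all 50 arrays, adjusted p under 0.05). Counts within the gene lists below are to be read against these shares. Most changes were modest: 233 rises and 114 falls were 2-fold or more, 40 rises were 4-fold or more, and 1 fall was, that of Cyp2c55. The median change over all genes was -0.016. All 5 knockout arrays lay above all 5 floxed arrays for 824 genes (4.23%) and below them for 969 (4.97%), and these included 750 of the risen and 848 of the fallen genes. Array 21 was the mildest: it exceeded the floxed range for 62.0% of the risen genes, against 94.6%, 95.8%, 80.2% and 86.0% for arrays 22 to 25. Without array 22 the counts were 1045 and 1138, and without arrays 22 and 23 they were 335 (1.72%) and 347 (1.78%), of which 325 and 336 were among the genes called with all arrays. The direction was kept by 1672 of the 1674 risen genes and by all 1976 fallen genes when both were left out. A fit of the 10 arrays alone called 827 (4.24%) and 957 (4.91%).

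Ripk3, Zbp1 and Mlkl, core genes of necroptosis, rose in the knockout. Of 23 measured genes of the death receptor complex and necroptosis, 9 rose and 1, Fadd, fell, with a median change of 0.17. Ripk1, listed with them, was not among the genes measured. Ripk3, the kinase of necroptosis, read 7.62, 9.66, 8.47, 7.85 and 8.04 in the knockout and 7.03, 6.49, 6.67, 7.07 and 6.65 in the floxed group. Every knockout array was above the floxed range, array 22 most of all, and the rise was 2.92-fold (1.55 ± 0.25 SE, limma adjusted p = 9.13e-05). Zbp1, the sensor upstream of RIPK3, read 6.34, 8.03, 7.50, 7.31 and 7.27 against 5.67, 5.75, 5.36, 5.79 and 5.82, and rose by 1.61 ± 0.27 SE (limma adjusted p = 0.000104). Mlkl, the executioner, read 8.73, 9.56, 8.98, 9.17 and 9.17 against 8.54, 8.20, 8.00, 8.33 and 8.16, and rose by 0.88 ± 0.17 SE (limma adjusted p = 0.000364). Again no knockout array overlapped the floxed group, and array 21 was the lowest for all 3 genes. Without arrays 22 and 23 Ripk3, Zbp1 and Mlkl still passed.

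Caspase-8 itself moved little. Casp8 read 10.59, 10.79, 10.73, 10.73 and 10.57 in the knockout and 10.50, 10.12, 10.11, 10.27 and 10.59 in the floxed group, which overlap, and its rise of 0.37 ± 0.11 SE (limma adjusted p = 0.0171) did not pass without array 22, 27 or 28 (0.0553, 0.0625 and 0.063), without arrays 22 and 23 (0.169) or in the fit of the 10 arrays alone (0.0567). Cflar, which encodes the caspase-8 partner cFLIP, differed by 0.01 ± 0.08 SE (limma adjusted p = 0.947). Tnfsf10, which encodes the death ligand TRAIL, read 7.11, 8.10, 8.02, 7.62 and 7.86 against 6.01, 6.26, 6.07, 6.21 and 6.45, without overlap, and rose 2.92-fold (1.54 ± 0.20 SE, limma adjusted p = 5.35e-06). Tnfrsf1b, a TNF receptor, rose by 1.14 ± 0.23 SE (0.00051; 0.0746 without arrays 22 and 23). Without floxed array 27 or without floxed array 28, 5 of the 23 genes rose, as in the fit of the 10 arrays alone, and without arrays 22 and 23, 4 rose.

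**Figure D1:**
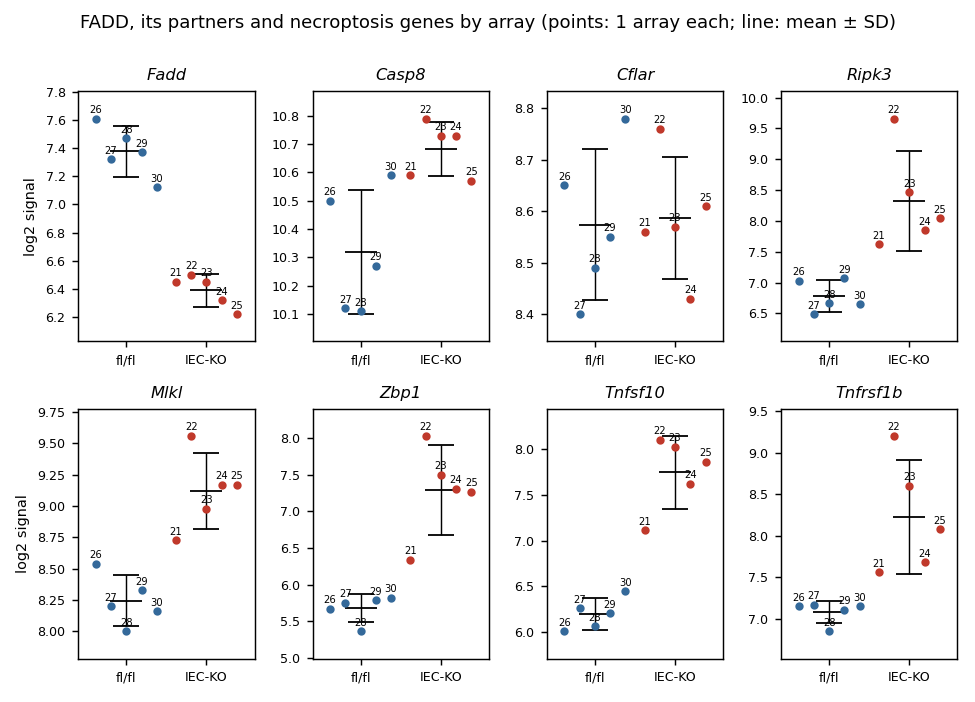
Log2 signal of Fadd, Casp8, Cflar and genes of necroptosis and death signalling on the 5 Fadd fl/fl and 5 FADD IEC-KO arrays; each point is 1 array, and lines mark the mean ± SD. Fadd is lower on all 5 knockout arrays, Ripk3, Mlkl, Zbp1, Tnfsf10 and Tnfrsf1b are higher on all 5, and Casp8 and Cflar overlap.

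Other death pathways held calls in both directions. Of 22 genes of the BCL2 family and the executioner caspases, 6 rose and 2 fell, against 8.59% and 10.1% of all genes. Without any one of arrays 22, 23, 26, 27, 28 and 30, 1 fell, and without arrays 22 and 23, 1 rose and 1 fell. Bcl2a1d, one of several near-identical copies of an anti-apoptotic gene that an array may not tell apart, rose by 1.45 ± 0.27 SE (limma adjusted p = 0.000268). Of 24 gasdermin and inflammasome genes, 5 rose and 5 fell. Gsdmd, which encodes the pore-forming protein of pyroptosis, read 9.44, 10.09, 9.57, 9.60 and 9.88 in the knockout and 9.06, 9.27, 9.09, 9.13 and 9.20 in the floxed group, and rose by 0.56 ± 0.12 SE (0.00109). Casp4, the caspase that cleaves it, rose by 0.84 ± 0.18 SE (0.00117). Both groups were again separate for Gsdmd, with array 22 the highest.

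Gsdmc3, one of several close copies in the gasdermin C family, went the other way. It read 10.92, 9.86, 10.49, 11.45 and 10.86 in the knockout and 11.41, 11.61, 11.46, 11.50 and 11.61 in the floxed group, so that only array 24 reached the floxed range, and fell by 0.80 ± 0.17 SE on the log2 scale (limma adjusted p = 0.00079; 0.0993 without arrays 22 and 23). Nlrp3, the inflammasome sensor, read 2.73, 6.70, 5.54, 2.90 and 3.19 against 2.20, 2.65, 2.56, 2.80 and 2.57. It was high on arrays 22 and 23 and near the floxed range on the others, and its rise of 1.66 ± 0.45 SE (0.00785) did not pass without array 22 (1.03, 0.0816), without arrays 22 and 23 (0.626) or in the fit of the 10 arrays alone (0.125). Without array 22, 3 of the 24 genes rose and 2 fell, and without arrays 22 and 23, 2 rose and 0 fell.

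Interferon-induced genes rose broadly. All 11 measured interferon-inducible GTPases, proteins that attack vacuoles holding microbes, rose, with a median change of 1.83, and 8 of them also rose without arrays 22 and 23. Igtp read 6.12, 9.58, 8.42, 8.07 and 7.82 in the knockout and 5.54, 5.47, 5.15, 5.20 and 5.56 in the floxed group, and rose 6.15-fold (2.62 ± 0.43 SE, limma adjusted p = 0.0001). Irgm1, a regulator of the family, read 8.21, 10.24, 9.59, 9.44 and 9.14 against 7.96, 7.62, 7.37, 7.60 and 7.86, and rose by 1.64 ± 0.28 SE (0.00012). Tgtp2, whose close copy Tgtp1 an array may not tell apart, read 5.51, 10.28, 9.37, 8.81 and 8.55 against 5.20, 4.11, 4.36, 5.31 and 5.18, and rose 12.8-fold (3.67 ± 0.58 SE, 7.14e-05). The pattern was the same for all 3: array 22 highest, array 21 just above the floxed arrays, and no overlap. Iigp1, with array 21 inside the floxed range, and Gbp4 rose by 2.92 ± 0.46 and 2.03 ± 0.35 SE (7.14e-05 and 0.000135).

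These genes are textbook targets of the interferon-activated factors STAT and IRF, so the 150 bases before the start of 4 risen genes are shown, from RefSeq (GRCm38.p6). Capitals mark letters that match the interferon response element (GAAA, any 2 bases, GAAA) or the gamma-activated site (TTC, any 3 bases, GAA), searched on both strands. Igtp lies at chr11:58199406-58199555 on the plus strand, Irgm1 at chr11:48871421-48871570 and Tgtp2 at chr11:49064213-49064362, both on the minus strand, and B2m, the shared light chain of class I molecules, at chr2:122147537-122147686 on the plus strand.
Igtp: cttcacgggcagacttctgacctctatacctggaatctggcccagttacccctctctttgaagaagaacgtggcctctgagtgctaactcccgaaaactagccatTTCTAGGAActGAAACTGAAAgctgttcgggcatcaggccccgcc
Irgm1: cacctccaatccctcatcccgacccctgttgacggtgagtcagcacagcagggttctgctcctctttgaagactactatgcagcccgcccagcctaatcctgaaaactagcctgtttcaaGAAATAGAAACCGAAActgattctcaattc
Tgtp2: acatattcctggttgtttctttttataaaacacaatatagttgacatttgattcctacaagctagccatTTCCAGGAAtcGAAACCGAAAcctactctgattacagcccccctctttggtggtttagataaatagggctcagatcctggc
B2m: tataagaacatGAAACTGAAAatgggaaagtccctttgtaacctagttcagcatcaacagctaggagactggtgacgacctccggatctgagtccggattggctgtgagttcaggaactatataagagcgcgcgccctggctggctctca
In Igtp and Tgtp2 a gamma-activated site stands 2 bases before a response element, starting 45 and 81 bases before the gene start. Irgm1 holds 2 overlapping response elements, 30 and 24 bases before the start, and B2m holds 1 at 139. Over promoters of 300 bases, the response element was found in 7 of 7 GTPase genes with a promoter entry and in 618 of 15683 genes tested (3.94%). The gamma-activated site was found in 4 of 7 and in 1416 (9.03%). Other risen lists held fewer matches. Of 14 immunoproteasome and class I genes with a promoter entry, B2m's list, 5 held the response element and 1 the gamma-activated site. Of 9 class II genes, 1 held the response element and 1 the gamma-activated site. A match describes the letters only.

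Antigen presentation rose with the GTPases. All 16 measured genes of the immunoproteasome and of class I presentation rose, with a median change of 0.81, and 11 of them also rose without arrays 22 and 23. Psmb8, an inducible proteasome subunit, read 7.64, 9.80, 9.55, 8.83 and 9.24 in the knockout and 7.20, 6.70, 7.23, 7.28 and 7.11 in the floxed group, and rose 3.76-fold (1.91 ± 0.31 SE, limma adjusted p = 7.46e-05). B2m read 12.08, 12.80, 12.77, 12.45 and 12.88 against 11.72, 11.73, 11.56, 11.58 and 11.77, and rose by 0.92 ± 0.15 SE (7.23e-05). Neither gene overlapped between groups, and array 21 was the lowest of the knockout arrays for both. The proteasome activators Psme1 and Psme2 and the peptide-loading protein Tapbp rose by 0.79 ± 0.13, 0.82 ± 0.13 and 0.51 ± 0.08 SE (7.23e-05, 7.14e-05 and 6.46e-05).

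Class II genes, which present peptides to helper T cells, rose in 7 of 11 members (median 0.98), and 6 did without arrays 22 and 23. H2-Ab1 read 9.47, 10.95, 11.11, 10.80 and 11.22 against 8.46, 8.75, 8.62, 9.16 and 9.47, and rose by 1.82 ± 0.31 SE (limma adjusted p = 0.000109). H2-DMb1, part of the peptide exchange complex, read 8.46, 10.71, 10.85, 10.64 and 10.92 against 7.50, 7.86, 7.80, 8.21 and 8.71, and rose 4.92-fold (2.30 ± 0.37 SE, 7.23e-05). On arrays 22 to 25 both genes were well above every floxed array, and array 21 lay at or inside the top of the floxed range. H2-Aa, H2-Eb1 and H2-DMa rose by 1.74 ± 0.33, 1.76 ± 0.30 and 1.76 ± 0.29 SE.

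Of 17 genes of interferon-gamma signalling and feedback, 8 rose and 0 fell (median 0.56, 4 rises without arrays 22 and 23). Ido1, the tryptophan-degrading enzyme, read 5.36, 11.05, 9.14, 9.36 and 8.20 in the knockout and 4.90, 3.94, 4.06, 4.27 and 4.14 in the floxed group, and rose 20.5-fold (4.36 ± 0.73 SE, limma adjusted p = 0.000109). Array 21 exceeded the highest floxed array only slightly, and array 22 was far above all. The transcription factors Irf1 and Irf8 rose by 0.89 ± 0.18 and 0.60 ± 0.10 SE (0.000459 and 0.00012), and Wars, a tRNA synthetase known to respond to interferon-gamma, by 1.14 ± 0.17 SE (2.47e-05). Cd274, which encodes the T cell inhibitor PD-L1, rose by 1.38 ± 0.32 SE (0.00204; 0.152 without arrays 22 and 23).

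Antiviral genes induced by type I interferon rose in 18 of 28 members, with a median of 0.59 and no falls. Oasl2 read 7.98, 9.70, 8.61, 8.60 and 9.55 against 7.44, 6.89, 6.29, 7.06 and 7.49, without overlap, and rose by 1.86 ± 0.41 SE (limma adjusted p = 0.00138). Rtp4 and the kinase gene Eif2ak2 rose by 1.55 ± 0.33 and 0.54 ± 0.11 SE (0.00108 and 0.000644). Irf7 and Bst2 rose by 1.15 ± 0.25 and 0.91 ± 0.19 SE (0.00136 and 0.000693) but not without arrays 22 and 23 (0.0521 and 0.0783). Counts here depended on single arrays: 10 of the 28 rose without floxed array 28 or without knockout array 25, 9 without array 22, and 3 without arrays 22 and 23. The response element stood in 13 of 21 of these genes with a promoter entry.

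Some genes were raised alike on every knockout array. Aqp4, a water channel, read 10.40, 10.41, 10.43, 10.42 and 10.45 in the knockout and 8.73, 8.00, 7.85, 8.90 and 8.36 in the floxed group. The knockout values had an SD of 0.02 (n = 5) and the floxed values one of 0.46 (n = 5), and the rise was 4.15-fold (2.05 ± 0.25 SE, limma adjusted p = 9.94e-07). Ccl8, a chemokine for monocytes, read 6.85, 7.05, 7.26, 6.52 and 6.41 against 4.62, 4.37, 4.99, 4.50 and 4.29, and rose 4.80-fold (2.26 ± 0.25 SE, 2.51e-07). C4b, a complement component, read 8.65, 9.33, 8.92, 8.91 and 8.55 against 7.75, 7.51, 7.73, 7.89 and 7.82, and rose by 1.13 ± 0.13 SE (3.57e-07). For all 3 array 21 lay close to the other knockout arrays, and the changes without arrays 22 and 23 also passed.

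Other genes were raised on arrays 22 and 23 above all. S100a8, a neutrophil calcium-binding protein, read 4.21, 11.26, 8.93, 5.48 and 5.30 in the knockout and 3.21, 3.36, 3.20, 3.35 and 2.96 in the floxed group, and rose by 3.82 ± 0.89 SE (limma adjusted p = 0.00213; 0.228 without arrays 22 and 23). Its floxed values lay at the level of Y-linked genes on arrays without a Y signal (2.58 to 3.38), so no fold is given, and the same holds for Nlrp3. Cxcl2, a neutrophil chemokine, read 5.15, 10.38, 8.86, 5.77 and 5.78 against 4.91, 4.90, 5.06, 5.02 and 4.84. All 5 values lay above the floxed range, 3 of them by less than 1 log2 unit. Its rise of 2.24 ± 0.63 SE (0.00926) did not pass without array 22 (1.45, 0.0911), without array 23 (0.0512), without both (0.593) or in the fit of the 10 arrays alone (0.104). Mmp10, a matrix-degrading enzyme, read 3.46, 8.46, 6.95, 4.04 and 4.48 against 3.10, 3.58, 4.09, 3.64 and 4.10, and its rise of 1.78 ± 0.53 SE (0.0144) did not pass without array 22 (1.03, 0.139), without array 23 (0.0761), without both (0.782) or in the fit of the 10 arrays alone (0.167).

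**Figure D2:**
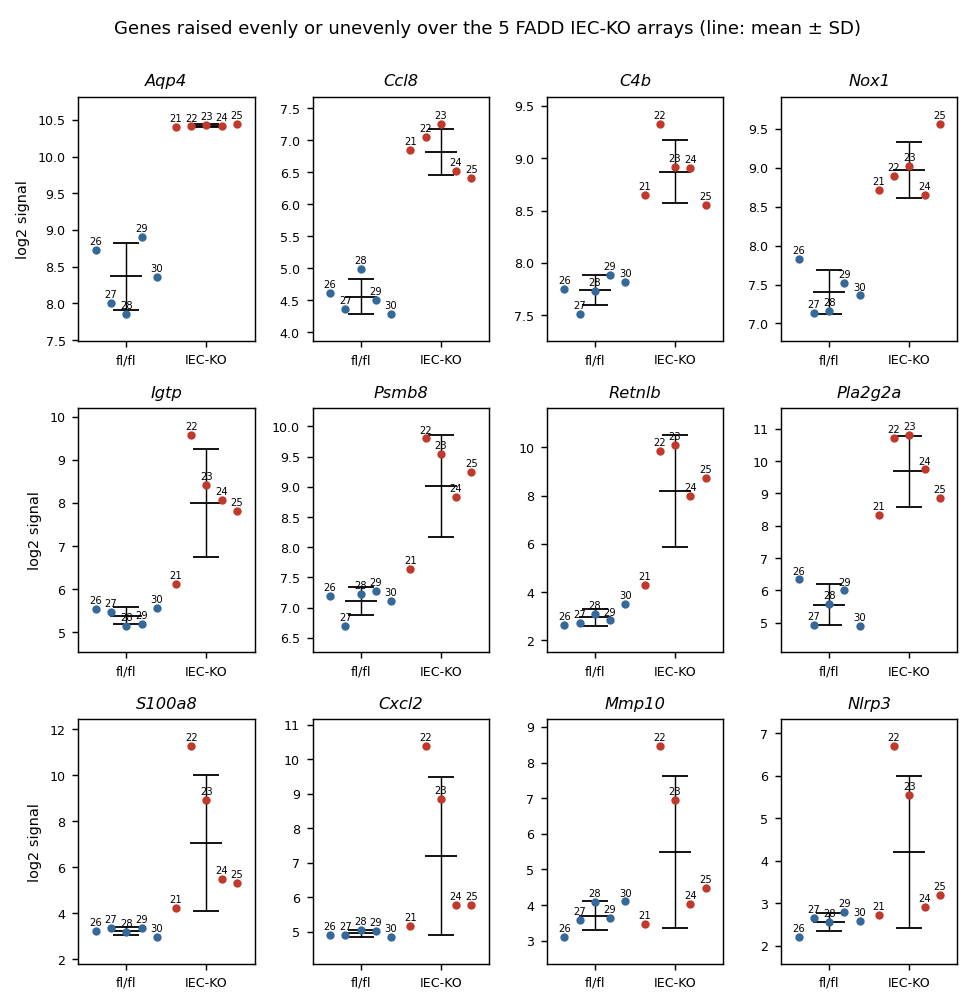
Log2 signal of 12 genes on the 5 Fadd fl/fl and 5 FADD IEC-KO arrays; each point is 1 array, and lines mark the mean ± SD. Aqp4, Ccl8, C4b and Nox1 are raised to a similar level on all 5 knockout arrays, Igtp, Psmb8, Retnlb and Pla2g2a are raised on all 5 and lowest on array 21, and S100a8, Cxcl2, Mmp10 and Nlrp3 are highest on arrays 22 and 23.

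Secreted defence genes of the epithelium gave some of the largest rises. Of 23 antimicrobial and acute phase genes, 11 rose and 2 fell (median 0.55). Retnlb, which encodes an antibacterial protein of goblet cells, read 4.31, 9.85, 10.09, 7.98 and 8.72 in the knockout and 2.63, 2.74, 3.10, 2.83 and 3.51 in the floxed group, and rose by 5.23 ± 0.79 SE (limma adjusted p = 4.57e-05). The floxed values lay at the level that Y-linked genes gave on arrays without a Y signal (2.58 to 3.38), so an exact fold is not given for Retnlb. Pla2g2a, a phospholipase that kills bacteria, read 8.32, 10.70, 10.81, 9.74 and 8.85 against 6.34, 4.94, 5.58, 6.00 and 4.91, and rose 17.5-fold (4.13 ± 0.54 SE, 3.68e-06). Both were clear of the floxed range on every knockout array, Retnlb least so on array 21. Serpina3n, a protease inhibitor of the acute phase, rose by 2.73 ± 0.41 SE (4.57e-05), and Saa1, a serum amyloid gene with a near-identical copy, by 0.49 ± 0.12 SE (0.00486). Lcn2, the iron-withholding protein, rose by 2.69 ± 0.63 SE (0.00221; 0.264 without arrays 22 and 23).

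The 2 falls were the mucosal pentraxins Mptx1 and Mptx2, which are close copies. Mptx1 read 11.76, 8.25, 9.02, 11.07 and 9.87 against 12.04, 11.73, 11.56, 11.99 and 11.89, so that array 21 stayed within the floxed range. It fell by 1.85 ± 0.43 SE on the log2 scale (limma adjusted p = 0.00213; 0.209 without arrays 22 and 23), and Mptx2 changed by -1.67 ± 0.39 SE (0.00213; 0.22 without both; 0.0505 in the fit of the 10 arrays alone). Of the 23 genes, 7 rose without array 22 and 4 without arrays 22 and 23. Outside this list, Clca4b, a member of the chloride channel accessory family, read 10.02, 12.60, 12.02, 11.88 and 12.37 against 7.46, 7.39, 6.90, 6.96 and 6.93, and rose 25.1-fold (4.65 ± 0.74 SE, 7.23e-05). Plet1, an epithelial surface protein linked to wound repair, rose 14.9-fold (3.90 ± 0.81 SE, 0.000748; 0.0536 without arrays 22 and 23), and Dhrs9, a retinol-oxidising enzyme, by 3.04 ± 0.57 SE (0.000309).

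Enzymes that make reactive oxygen and nitric oxide rose in 11 of 16 members, with a median of 0.84 and no falls, and 6 rose without arrays 22 and 23. Nos2, the inducible nitric oxide synthase, read 6.19, 10.43, 9.02, 8.12 and 8.59 in the knockout and 4.53, 4.40, 4.46, 4.51 and 4.76 in the floxed group, and rose 15.3-fold (3.94 ± 0.71 SE, limma adjusted p = 0.000224). Duoxa2, which brings the oxidase DUOX2 to the cell surface, read 8.86, 10.08, 9.40, 9.02 and 9.74 against 6.87, 6.15, 6.22, 6.99 and 7.06, and rose 6.79-fold (2.76 ± 0.46 SE, 0.000109). Nox1, the NADPH oxidase of the colon, read 8.72, 8.89, 9.03, 8.65 and 9.57 against 7.83, 7.14, 7.16, 7.52 and 7.36, and rose 2.97-fold (1.57 ± 0.30 SE, 0.000388). None of the 3 overlapped, and for Duoxa2 and Nox1 array 21 was close to the rest of the knockout arrays. Ddah1, which removes an inhibitor of nitric oxide synthesis, and Gch1, which makes its cofactor, rose by 2.66 ± 0.37 and 0.91 ± 0.14 SE (1.27e-05 and 4.57e-05).

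Cytokines and chemokines were high on few arrays. Of 23 acute cytokine genes, 11 rose and 0 fell (median 0.46). Without array 22, 4 rose, and without arrays 22 and 23, 2 rose, Tnf and Il18bp. Tnf read 5.91, 8.82, 7.70, 6.78 and 6.95 in the knockout and 4.31, 5.02, 5.08, 4.99 and 5.17 in the floxed group, and rose 4.99-fold (2.32 ± 0.43 SE, limma adjusted p = 0.000275). Il1b, the inflammasome product, read 5.01, 11.32, 10.42, 6.40 and 6.50 against 4.79, 4.12, 4.36, 4.48 and 4.12, and rose 11.7-fold (3.55 ± 0.86 SE, 0.00301; 0.292 without arrays 22 and 23). Both groups were separate for both genes, but Il1b on array 21 was only slightly above the highest floxed array. Il18bp, the decoy that binds interleukin-18, rose by 1.08 ± 0.20 SE (0.000275).

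Of 16 CXC chemokines, 8 rose and 1 fell (median 0.76), and the fall was lost without any one of arrays 22, 23, 24, 25, 29 and 30. Without array 22 only 2 rose, without array 23, 4, and without both, 0. Cxcl9, which draws T cells, read 5.69, 10.18, 8.41, 7.71 and 6.82 against 5.04, 5.28, 5.12, 5.26 and 4.89, and rose 6.25-fold (2.64 ± 0.60 SE, limma adjusted p = 0.00164; 0.125 without arrays 22 and 23). Of 18 CC chemokines, 6 rose and 1 fell, the fall was lost without array 21, 22, 23, 27 or 28, and without arrays 22 and 23 the 2 that rose were Ccl8 and Ccl12, also a monocyte attractant (1.03 ± 0.17 SE, 0.0001). Among 20 subunits, inhibitors and targets of NF-kappaB, the factor behind many of these genes, 11 rose and 1 fell (median 0.57), but 5 rose without array 22 and 0 without arrays 22 and 23. Tnfaip3, which encodes the inhibitor A20, rose by 0.84 ± 0.20 SE (0.00233; 0.116 without both). Stat3, the factor downstream of interleukin-6 and interleukin-22, read 9.09, 9.73, 9.82, 9.45 and 9.42 against 8.95, 8.75, 8.86, 8.67 and 8.72, without overlap, and rose by 0.71 ± 0.12 SE (0.000104). It was the only rise among 14 measured genes of the IL-23, IL-22 and IL-17 axis, of which 2 fell (median 0.07). Without arrays 22 and 23, 1 rose and 0 fell, so the rise of Stat3 does not stand for that list.

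Many markers of immune cells rose, a large part of them on few arrays. Of 21 neutrophil markers 15 rose and 0 fell (median 1.24), but 3 did without array 22, 8 without array 23 and 0 without both. The mean of the list, set against the floxed mean, was higher by 0.17, 3.55, 2.18, 0.43 and 0.64 on arrays 21 to 25, with floxed arrays between -0.03 and 0.05. Of 19 monocyte and macrophage markers, 14 rose and 2 fell (median 0.78). Of the 19, 8 rose without array 22 and 1 without arrays 22 and 23. That 1 was Ly6c2, listed here as a monocyte marker. Ly6c2 read 8.19, 10.48, 9.20, 8.55 and 9.05 against 7.48, 6.57, 6.47, 7.75 and 7.93, and rose by 1.86 ± 0.36 SE (limma adjusted p = 0.000389). The falls were Mertk and Cd163 (-0.74 ± 0.18 and -0.77 ± 0.20 SE, limma adjusted p = 0.00295 and 0.00493). Neither passed without arrays 22 and 23 (0.132 and 0.16), and Cd163 did not in the fit of the 10 arrays alone (0.0507). Over all 19 markers 16 were higher and 3 lower, so these 2 falls do not stand for macrophage genes as a whole.

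Complement genes, which tissue macrophages and epithelium both make, rose in 8 of 16 measured members and fell in 1 (median 0.42), and 2 rose and 0 fell without arrays 22 and 23. C3 itself is not analysed here. Cfb, factor B of the alternative pathway, read 7.93, 9.08, 8.64, 8.25 and 8.73 against 7.64, 7.31, 7.56, 7.51 and 7.67, without overlap, and rose by 0.99 ± 0.18 SE (limma adjusted p = 0.000196). C3ar1, the receptor for the fragment C3a, rose by 0.62 ± 0.12 SE (0.000505; 0.066 without both). Of 15 mast cell and eosinophil markers 6 rose and 1, Kit, fell, but 2 rose without array 23, 27 or 28, 3 without array 22 or 30, and 0 without arrays 22 and 23. Of 12 dendritic cell markers 2 rose, 1 without array 22, 25 or 27, and 0 without arrays 22 and 23.

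Of 19 T cell and cytotoxic markers, 10 rose (median 0.54), 6 without array 23 and 0 without arrays 22 and 23. The granzyme gene Gzmb rose by 0.93 ± 0.19 SE (limma adjusted p = 0.000557; 0.0715 without both). Of 19 B cell and plasma cell markers, 8 rose (median 0.21), 3 without arrays 22 and 23. Mzb1, a chaperone of antibody-making cells, read 5.53, 7.25, 6.94, 5.68 and 7.46 against 4.19, 3.96, 3.84, 4.90 and 4.96, and rose 4.60-fold (2.20 ± 0.34 SE, 6.48e-05). Jchain, which joins secreted antibodies, read 10.49, 11.96, 11.97, 10.65 and 12.12 against 9.36, 7.14, 7.00, 10.31 and 10.08, and rose by 2.66 ± 0.51 SE (0.000372). Here array 25 was the highest, and the floxed arrays themselves spread over 3 log2 units for Jchain. The part of these cell markers in the rises of other genes was not tested.

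**Figure D3:**
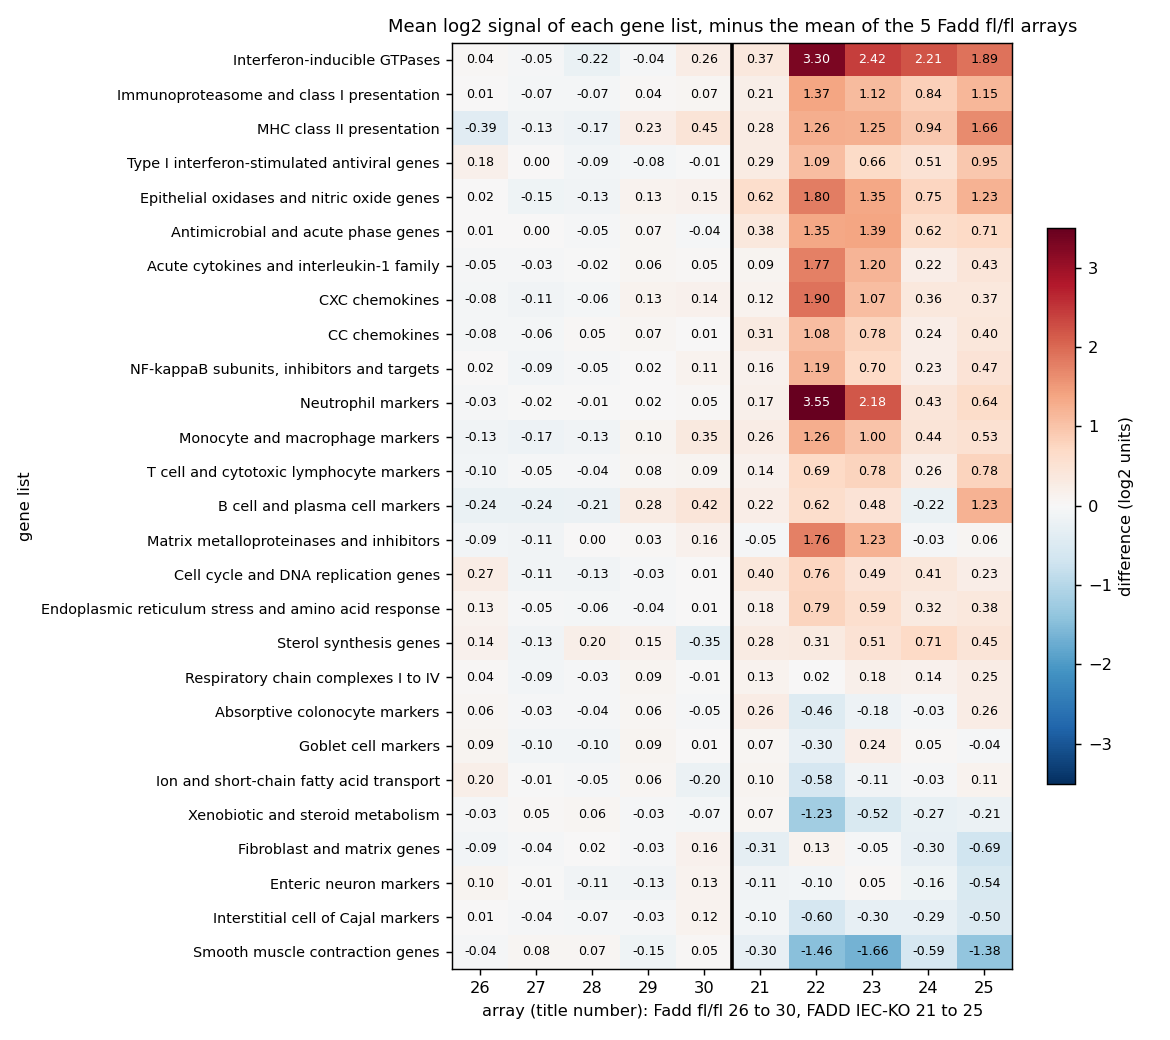
Mean log2 signal of each gene list on each array minus the mean of the 5 Fadd fl/fl arrays, as colours with the value written in each cell; arrays are columns and lists are rows. Interferon lists are raised on arrays 22 to 25 and little on array 21, neutrophil, cytokine and metalloproteinase lists mainly on arrays 22 and 23, and smooth muscle genes are lower on all 5 knockout arrays.

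The epithelium itself changed in selected genes. Of 17 absorptive colonocyte markers, 4 rose and 4 fell. Car1, the carbonic anhydrase of surface colonocytes, read 12.70, 11.13, 11.38, 11.92 and 11.92 in the knockout and 12.94, 12.85, 12.86, 12.83 and 12.87 in the floxed group. It was lower on all 5 arrays and fell by 1.06 ± 0.20 SE on the log2 scale (limma adjusted p = 0.000275), while Krt20, a keratin of mature surface cells, rose by 0.52 ± 0.11 SE (0.00128). Slc37a2, a sugar phosphate transporter, fell by 1.67 ± 0.35 SE (0.000784; 0.0902 without arrays 22 and 23). Without array 22, 2 of the 17 fell, and without arrays 22 and 23, 3 rose and 1 fell. Of 20 genes of ion and short-chain fatty acid transport, 0 rose and 5 fell, but 1 fell without array 22, 8 without array 24 and 0 without arrays 22 and 23.

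Markers of secretory cells moved in both directions, at shares to be read against the 18.7% of all genes that changed. Of 18 goblet cell markers 3 rose and 2 fell, 1 fell without array 22, and 2 rose and 0 fell without arrays 22 and 23. Spink4, a goblet cell peptide, read 11.44, 11.64, 12.46, 11.93 and 11.78 against 10.92, 10.79, 10.97, 11.11 and 10.79, without overlap, and rose by 0.93 ± 0.17 SE (limma adjusted p = 0.000285). Agr2, which folds mucins, rose by 0.39 ± 0.09 SE (0.00222). Of 17 enteroendocrine markers 1 rose and 2 fell, and of 14 tuft cell markers 0 rose and 1 fell, and all of these calls were lost without arrays 22 and 23. The enteroendocrine rise was lost without any one of arrays 23, 25, 26, 27, 28 and 30, without array 22 the counts were 2 and 1, and the tuft cell fall was lost without any one of arrays 22, 23, 26, 27, 29 and 30. Chga, the general enteroendocrine marker, differed by -0.21 ± 0.15 SE (0.338). Of 19 tight junction and claudin genes, 1 rose and 1 fell, Ocln, which encodes occludin (-0.53 ± 0.10 SE, 0.000372). The rise was lost without array 22, without array 23 and without both, 2 rose without array 21, 24 or 30, and 2 fell without array 25.

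A few stem cell genes fell and many cell cycle genes rose. Of 16 stem cell and Wnt target genes, 1 rose and 3 fell, and the rise was lost without array 22 or 23 or without floxed array 26, 27, 28 or 29. Without arrays 22 and 23, 0 rose and 2 fell. Lgr5, the marker of crypt base stem cells, read 7.32, 7.27, 7.29, 7.37 and 7.16 in the knockout and 7.48, 7.44, 7.61, 7.68 and 7.73 in the floxed group, a narrow but complete separation, and changed by -0.31 ± 0.08 SE (limma adjusted p = 0.00371). Tnfrsf19, a Wnt target of the crypt, changed by -0.48 ± 0.10 SE (0.000763). Of 25 genes of the cell cycle and DNA replication, 14 rose and 0 fell (median 0.45), 9 without floxed array 28, array 22 or array 23, and 4 without arrays 22 and 23. Ccne1, the cyclin of entry into replication, read 7.12, 7.84, 7.17, 7.28 and 7.21 against 6.86, 6.68, 6.25, 6.51 and 6.56, and rose by 0.75 ± 0.14 SE (0.000341).

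Genes that respond to amino acid shortage and to misfolded protein rose in 13 of 23 members (median 0.43, 0 falls), and 4 rose without arrays 22 and 23. Asns, which makes asparagine, read 8.88, 9.94, 9.56, 9.44 and 8.99 against 8.63, 8.28, 8.39, 8.31 and 8.54, and rose by 0.93 ± 0.16 SE (limma adjusted p = 0.000116). Phgdh, the first enzyme of serine synthesis, and Sdf2l1, a chaperone cofactor, each rose by 0.72, with SE 0.14 and 0.13 (0.000384 and 0.000195). Of 19 oxidative stress genes, 11 rose and 0 fell (median 0.32), 4 rose and 1 fell without arrays 22 and 23, and Txnrd1, a thioredoxin reductase, rose by 0.56 ± 0.10 SE (0.000151). Of 18 p53 target genes, 0 rose and 2 fell, against 8.59% and 10.1% of all genes. Among the falls was Eda2r, a TNF receptor family member (-0.62 ± 0.15 SE, limma adjusted p = 0.003). Of the 18, 1 rose without array 21 or 24, and 1 fell without arrays 22 and 23. Of 17 injury repair genes 7 rose and 0 fell, 3 without array 22 and 0 without arrays 22 and 23.

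Of 24 measured genes of glycolysis and the hypoxia response, 8 rose and 1 fell (median 0.20), and 1 rose and 1 fell without arrays 22 and 23. Pgk1, phosphoglycerate kinase, read 10.41, 10.71, 10.63, 10.75 and 10.61 in the knockout and 10.09, 10.14, 10.24, 10.06 and 9.79 in the floxed group, and rose by 0.56 ± 0.10 SE (limma adjusted p = 0.000291). Ndrg1, which hypoxia is known to induce, changed by -0.64 ± 0.14 SE (0.000848). The groups were separate for both.

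Metabolic genes moved by pathway. Of 31 genes of xenobiotic and steroid metabolism, 1 rose and 15 fell (median -0.42). Without array 22, 4 fell, and without arrays 22 and 23, 0 fell and 1 rose. Cyp2c55, a cytochrome P450 of the colon, read 10.21, 5.02, 7.95, 8.65 and 7.03 in the knockout and 10.38, 10.98, 10.93, 10.40 and 10.04 in the floxed group. It was lowest on array 22 and within the floxed range on array 21, and was lower by 6.83-fold on average (-2.77 ± 0.64 SE, limma adjusted p = 0.00205; 0.0949 without arrays 22 and 23). The rise was Ces2e, a carboxylesterase (1.12 ± 0.22 SE, 0.000459), with array 25 highest at 9.98. Abcb1a, a drug efflux pump, fell by 1.17 ± 0.25 SE (0.000794; 0.116 without both).

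Of 19 sterol synthesis genes 8 rose and 0 fell (median 0.43), 5 without floxed array 30, array 23 or array 24, and 2 without arrays 22 and 23. Pmvk, a kinase of the mevalonate pathway, read 7.42, 8.31, 8.21, 8.15 and 7.87 against 6.89, 6.84, 7.27, 7.34 and 7.29, and rose by 0.87 ± 0.18 SE (limma adjusted p = 0.000739). Of 37 genes of respiratory chain complexes, 12 rose and 0 fell, each by a small amount (median 0.12), 6 in the fit of the 10 arrays alone and 4 without arrays 22 and 23. Cox5a, a subunit of the terminal oxidase, rose by 0.28 ± 0.06 SE (0.00199). Of 28 genes of fatty acid oxidation, 2 rose and 6 fell, among them Ppargc1a, a coactivator of mitochondrial genes, which fell by 1.00 ± 0.19 SE (0.000282). Without arrays 22 and 23, 1 rose and 1 fell.

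Genes of the muscle of the colon wall fell throughout. All 23 measured smooth muscle contraction genes fell, with a median change of -1.03. All 23 fell whichever single array was left out, 22 in the fit of the 10 arrays alone, and 10 without arrays 22 and 23, where the median was -0.71. For 17 of the 23, all 5 knockout arrays lay below all 5 floxed arrays. Pln, the regulator of the calcium pump, read 5.80, 4.07, 3.95, 4.80 and 4.01 in the knockout and 6.63, 6.38, 6.21, 6.25 and 6.38 in the floxed group, and was lower by 3.58-fold (-1.84 ± 0.30 SE, limma adjusted p = 7.23e-05). Synpo2, an actin-bundling protein, read 10.11, 8.41, 8.26, 9.76 and 8.77 against 10.47, 10.41, 10.43, 10.27 and 10.58, and fell by 1.37 ± 0.24 SE (0.000159). Arrays 22, 23 and 25 were the lowest for both, and array 21 was the nearest to the floxed group. Array 25 was nearly as low for the mean of the muscle list as arrays 22 and 23, and the cause was not tested.

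The same split held for the list as a whole: its mean was lower by 0.30, 1.46, 1.66, 0.59 and 1.38 log2 units on arrays 21 to 25, with floxed arrays between -0.15 and 0.08. Pcp4, a calmodulin-binding peptide, Casq2, a calcium store protein, Hspb6, a small heat shock protein, and Kcnmb1, a potassium channel subunit, changed by -1.70 ± 0.30, -1.57 ± 0.28, -1.26 ± 0.22 and -0.82 ± 0.13 SE. Prkg1, the kinase that relaxes smooth muscle, changed by -1.34 ± 0.20 SE (limma adjusted p = 2.69e-05). The labels do not say how much muscle each piece of tissue held.

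**Figure D4:**
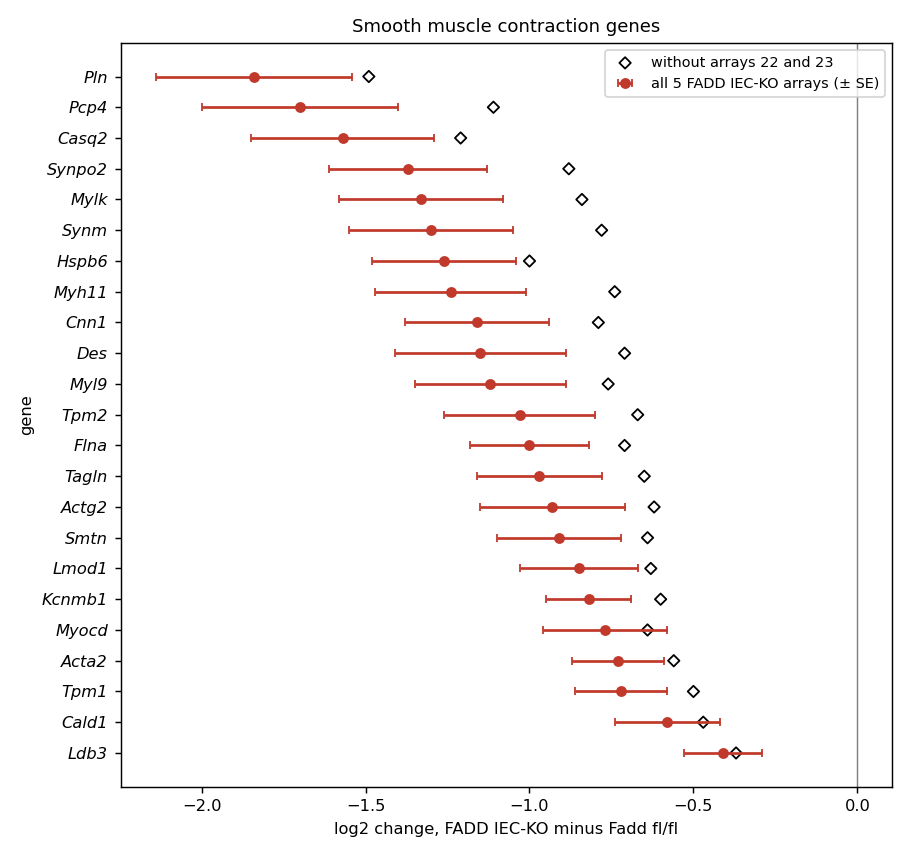
Log2 change, FADD IEC-KO minus Fadd fl/fl, of the 23 smooth muscle contraction genes with all 5 knockout arrays (circles, ± SE) and without arrays 22 and 23 (open diamonds). All circles lie below 0, from Pln at -1.84 upwards, and the diamonds lie nearer to 0.

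Other cells of the wall fell in part. Of 9 markers of the interstitial cells of Cajal, the pacemakers of gut movement, 0 rose and 4 fell, 1 without arrays 22 and 23. Kit, their receptor and that of mast cells, read 8.59, 7.80, 8.53, 8.46 and 8.06 in the knockout and 9.19, 9.04, 8.82, 9.04 and 9.25 in the floxed group, without overlap, and changed by -0.78 ± 0.15 SE (limma adjusted p = 0.000447). Ano1, the chloride channel of these cells, is also the gene next to Fadd on its chromosome (RefSeq, GRCm38.p6). It read 11.09, 10.09, 10.91, 11.10 and 11.11 against 11.31, 11.56, 11.55, 11.36 and 11.23, again without overlap. Its change of -0.54 ± 0.13 SE (0.00259) was -0.35 without array 22 and did not pass without arrays 22 and 23 (0.137) or in the fit of the 10 arrays alone (0.0757).

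Of 19 enteric neuron markers 1 rose and 5 fell, but 2 or 3 fell without any one of arrays 22, 25, 27, 29 and 30, and 1 without arrays 22 and 23. Stmn2, a microtubule protein of neurons, changed by -0.79 ± 0.18 SE (limma adjusted p = 0.00138). Of 10 enteric glia markers 0 rose and 3 fell, 1 without floxed array 30 and 0 without array 22, and the glial factor Sox10 differed by -0.22 ± 0.15 SE (0.348). Of 20 endothelial and lymphatic markers, 4 rose and 2 fell, against 8.59% and 10.1% of all genes. Without array 22, 1 rose, and 1 fell without any one of arrays 22, 23, 25, 26, 29 and 30. Without arrays 22 and 23, 0 rose and 0 fell.

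Fibroblast genes split. Of 26 fibroblast and matrix genes, 3 rose and 10 fell (median -0.30). The 3 rises were lost without array 22 or without array 23, whereas 10 fell without arrays 22 and 23 (median -0.47). Lum, a collagen-binding proteoglycan, read 7.65, 7.26, 7.51, 7.54 and 6.79 in the knockout and 8.38, 8.19, 8.41, 8.26 and 8.88 in the floxed group, and fell 2.10-fold (-1.07 ± 0.23 SE, limma adjusted p = 0.00099). Dpt, a matrix protein, read 9.86, 9.09, 8.95, 9.36 and 8.92 against 10.26, 10.35, 10.39, 10.20 and 10.59, and Fn1, fibronectin, 10.76, 10.55, 10.57, 10.65 and 9.97 against 11.05, 11.17, 11.21, 11.02 and 11.14. All 3 were lower on every knockout array, array 25 included, and Dpt and Fn1 changed by -1.12 ± 0.20 and -0.62 ± 0.14 SE (0.000251 and 0.00161). Of 17 matrix metalloproteinases and inhibitors, 8 rose and 1 fell, but 0 rose without array 22, 2 without array 23 and 0 without both. The fall was Timp2, an inhibitor of these enzymes (-0.74 ± 0.17 SE, 0.00213).

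Other genes outside these lists fell as well. Tacc2, a centrosomal protein, read 8.71, 8.18, 8.15, 8.42 and 8.25 in the knockout and 9.13, 9.25, 9.29, 9.30 and 9.21 in the floxed group, and changed by -0.89 ± 0.12 SE (limma adjusted p = 1.27e-05). Cpxm2, a carboxypeptidase-like protein, fell by 1.00 ± 0.14 SE on the log2 scale (2.13e-05), C1qtnf3, a secreted C1q-like factor, changed by -1.55 ± 0.31 SE (0.000459), and Chrdl1, an antagonist of bone morphogenetic proteins, by -1.40 ± 0.26 SE (0.000261). Il15, the cytokine that keeps intraepithelial lymphocytes alive, read 7.35, 5.72, 6.22, 7.40 and 6.77 against 7.45, 8.75, 8.71, 7.91 and 7.96, and changed by -1.46 ± 0.27 SE (0.000244). The groups did not overlap for any of these 5 genes, as for 4.97% of all genes in this direction. Genes outside the lists were named for a large change without overlap or a small p, so this followed largely from the choice. For each of the 5 the value on array 21 or 24 was the nearest to the floxed range.

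A few genes of a list drawn up for another tissue fell. Of 16 pancreatic acinar markers, 0 rose and 4 fell, 3 without arrays 22 and 23. Sycn, a zymogen granule protein, read 11.66, 8.51, 9.96, 10.56 and 10.13 in the knockout and 12.07, 11.90, 11.94, 11.75 and 11.91 in the floxed group, without overlap, and was lower by 3.37-fold (-1.75 ± 0.32 SE, limma adjusted p = 0.000259). Clps, colipase, and Cela1, an elastase, changed by -1.18 ± 0.25 and -0.88 ± 0.19 SE (0.00108 and 0.00116). The list median was -0.14, so most of the list did not share these falls. The list mean was 6.40 to 6.49 on the floxed arrays, far below the level of Sycn. Of 18 core clock genes 1 rose and 2 fell, against 8.59% and 10.1% of all genes. Without array 21 or without floxed array 30, 6 fell, and 1 fell without array 22, 23, 26, 27 or 28. Without arrays 22 and 23, 0 rose and 1 fell. Nr1d1, the clock repressor REV-ERB alpha, read 10.18, 8.51, 9.09, 8.50 and 9.70 against 10.45, 10.64, 10.72, 11.00 and 10.29, and changed by -1.42 ± 0.30 SE (0.000779), while the clock output gene Dbp, at 9.54 on floxed array 30 and 11.50 to 11.74 on the other floxed arrays, differed by -1.49 ± 0.72 SE (0.149).

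The second set of FADD IEC-KO arrays, titles 89 to 124, has its own 5 arrays and its own control, Casp8 fl/fl, so no array is shared. In it 1326 genes (6.80%) rose and 828 (4.25%) fell. Of the 1674 genes that rose here 1556 were higher there too, and of the 1976 that fell 1770 were lower. These are counts of sign alone, whether or not a gene passed there, and the share over all genes was not computed. Fadd changed by -0.99 ± 0.11 SE here and -1.16 ± 0.11 SE there, Ripk3 by 1.55 ± 0.25 and 1.50 ± 0.25, Igtp rose by 2.62 and 2.27, and Aqp4 by 2.05 ± 0.25 and 1.43 ± 0.25. Retnlb changed by 5.23 ± 0.79 and 2.44 ± 0.79 SE, a difference of 2.79 ± 1.12 SE that did not pass (limma adjusted p = 0.329). Smooth muscle genes fell in 9 of 23 members there (median -0.59), against 23 of 23 here (median -1.03), and for Pln the difference of -1.09 ± 0.42 SE did not pass either (0.3).

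The difference between both effects passed for 24 genes, or 0.123% of those tested (10.7% at an unadjusted p under 0.05). Of these, 12 had also passed in the present comparison and 21 had opposite signs in the sets. The count ran from 2, without floxed array 29 or without floxed array 30, to 85 without floxed array 28. Zc4h2, a zinc finger gene, read 6.04, 6.01, 5.93, 6.08 and 5.82 in the knockout and 7.07, 6.83, 6.43, 6.80 and 6.95 in the floxed group, and changed by -0.84 ± 0.13 SE here (limma adjusted p = 3.57e-05) and by 0.02 ± 0.13 SE there (0.937). The difference was -0.86 ± 0.18 SE (0.0307). Slc6a8, the creatine transporter, differed by 0.32 ± 0.13 SE here and -0.69 ± 0.13 SE there (difference 1.01 ± 0.19, 0.013), and Zfp280c, a zinc finger gene, by -0.58 ± 0.15 and 0.44 ± 0.15 SE (-1.02 ± 0.22, 0.0328). Ptms, parathymosin, differed by -0.33 ± 0.11 and 0.53 ± 0.11 SE (-0.86 ± 0.16, 0.013). Without floxed array 30 the present change was -0.21 for Ptms (limma adjusted p = 0.196) and 0.19 for Slc6a8 (0.336), and Ptms did not pass without array 22, 24, 25 or 29 either. Slc6a8 passed here without floxed array 26 (0.0296) or 27 (0.0479). Control line and number series cannot be told apart in these differences.

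**Figure D5:**
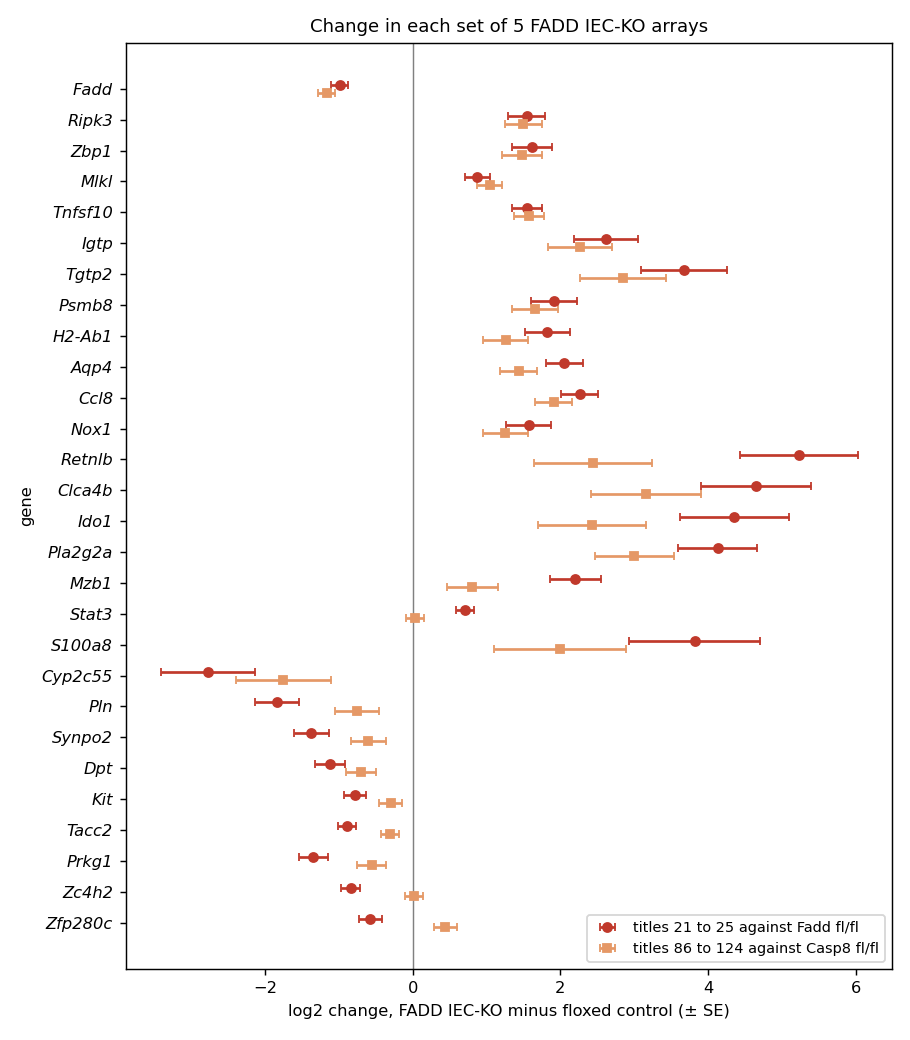
Log2 change ± SE of 28 genes in FADD IEC-KO arrays 21 to 25 against Fadd fl/fl (circles) and in the FADD IEC-KO arrays of titles 86 to 124 against Casp8 fl/fl (squares). Fadd, Ripk3 and Igtp lie close together, Retnlb and Pln lie nearer to 0 in the second set, and Zc4h2 and Zfp280c part.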

How the data were processed

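RNA of whole colon was hybridised to Affymetrix arrays, 1 per sample. The deposited values are log2 signals that the authors made with Affymetrix Expression Console and Transcriptome Analysis Console, per the submitters' processing notes, with versions and normalization not given in the sources used here. They were used as deposited, with 1 probe set per gene, that of the highest mean. limma (3.58.1, R 4.3.3) was fitted to all 50 arrays in 10 groups of 5, which share 1 estimate of the spread (residual degrees of freedom 40, prior 5.03), and p-values were adjusted by Benjamini and Hochberg over 19494 genes with a threshold of 0.05. The number of arrays limits the precision. Genes were named by rule: genes of the FADD pathway, the largest changes without overlap, up to 5 members per list and direction by smallest p, defining markers, and the largest differences between the 2 sets of arrays. Ppfia1 was added as the neighbour of Fadd. Groups, members and gene lists were chosen with earlier results of these data known. Alternatives covered normalization, spread, filters, sex and clock covariates, arrays fitted and arrays left out.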

Additional observations from a re-analysis of the deposited data

Results flagged for a closer look

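Among 258 sets of 5 arrays, the groups of the named genes, 17 (6.59%) held an array whose gap to the nearest other value was over 0.71 of the whole range, and chance gives about 1 in 20. Array 21 was set apart for 6 genes, and for 5 of them it was the low one: it read 9.04 for H2-Aa, 9.47 for H2-Ab1, 8.46 for H2-DMb1, 10.02 for Clca4b and 8.17 for Ddah1, in each case nearer to the floxed arrays than the other knockout arrays were. For C1qtnf3 it read 6.09 and was the high one, again on the floxed side. Array 22 read 10.09 for Ano1, below the others, and 7.84 for Ccne1, above them. Array 25 read 9.97 for Fn1, below the others, and 11.06 for Saa1, above them.

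Floxed array 30 read 9.54 for the clock output gene Dbp and 3.91 for Gzmb, below the other floxed arrays, and 6.94 for Gbp4 and 9.61 for Tapbp, above them. Floxed array 28 read 7.50 for Irf8, above the others, and 6.85 for Tnfrsf1b, below them. Floxed array 26 read 4.31 for Tnf, below the others.

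The effect of the knockout differed between both sets of FADD IEC-KO arrays by a test of the difference for 4 named genes. The difference, titles 1 to 30 minus titles 86 to 124, was -1.02 for Zfp280c, -0.86 for Zc4h2, -0.86 for Ptms and 1.01 for Slc6a8.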

How the results depend on the processing

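No paired analysis was possible because each title number occurs once in the series. No named result changed direction under any alternative run. The count of risen genes was 827 in the fit of the 10 arrays alone, 335 without arrays 22 and 23, 233 with a 2-fold change required, and 1045 to 1974 with 1 array left out. For fallen genes these counts were 957, 347, 114 and 1138 to 2283, the lowest of each range without array 22. The change of Fadd, -0.99 and 1.98-fold, did not reach the 2-fold requirement. It stayed below 0 and passed under every other alternative. The count of genes with a different effect in both sets of arrays was 24. It was 2 with group variance weights or a 2-fold requirement, 86 without the dimmest 40% of genes, 67 with trend and robust moderation, 72 with the clock score as a covariate, 12 without arrays 22 and 23, and 2 to 85 with 1 array left out. The cause was not tested. Of 120 named genes that passed besides Fadd, 80 kept their call under every alternative other than the 2-fold requirement, and 13 kept it wherever run but fell among the dimmest 40% and had no value there. Of the 120, 27 lost it without arrays 22 and 23, and 8 lost it in the fit of the 10 arrays alone. With arrays centred on their medians 50.3% of called genes were rises, against 45.9% with the values as deposited.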
